A study of Mus musculus with 8 samples.

Results

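The genotype difference of regulatory T (Treg) cells after stimulation in culture was examined in 4 of the 8 libraries of the series, 2 of WT cells and 2 of cells labelled Stim1/2-deficient. These were all the libraries of cells kept for 16 h on plate-bound antibodies to CD3 and CD28 at 1 µg/ml. The 4 libraries of unstimulated cells, 2 per genotype, served to estimate the spread between libraries and to show each difference before stimulation. The genotype of the deficient cells is labelled as floxed alleles of both genes, Stim1 fl/f and Stim2 fl/fll, together with Foxp3-YFPcre, and the strain is C57BL/6. Per the methods, both kinds of CD4+CD25hi cells were sorted from pooled spleen and lymph nodes of heterozygous females, so that WT cells (YFPcre-) and deficient cells (YFPcre+) came from the same kind of host. Cre was driven from the Foxp3 locus on the X chromosome, and the deficient cells carried the Cre allele that the WT cells did not express. An effect of the deleted genes and an effect of the Foxp3-YFPcre allele therefore cannot be told apart. The gates differed as well. Deficient cells had to express YFP from the Foxp3 locus, whereas WT cells were chosen by CD25 and the lack of YFP. The share of WT cells without Foxp3 cannot be read from these libraries, so this difference of the gates cannot be told apart from genotype either. The age of the mice was not given in the sources used here, and each sample was a pool of several mice per the methods, so that p-values measure the spread between these pooled samples.

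Treg cells restrain immune responses and depend on the transcription factor Foxp3. T cell receptor signals empty the calcium store of the endoplasmic reticulum, which STIM1 and STIM2 sense. They then open ORAI channels in the plasma membrane, and this store-operated calcium entry (SOCE) activates calcineurin and the NFAT transcription factors. Stimulation through CD3 and CD28 also turns on NF-kB, AP-1 and MYC, growth and division, and costimulatory receptors and cytokines. The comparison asks which of these functions, and which others, differed between genotypes once the cells had been activated.

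Values are normalized counts, the reads of a gene divided by a size factor of the library. The 4 stimulated libraries held 14386081 to 16283418 reads on genes, 1 read equalled 0.759 to 0.844 normalized counts, and 3 reads, taken as the floor, equalled 2.28 to 2.53. Labelled replicate 2 also held a smaller share of mt-Rnr2, a ribosomal RNA of mitochondria, at 9.78% of its reads against 13.2% to 13.6% in the other 3. Across the 15419 genes tested, Pearson's r of log2 values was 0.960 between the WT libraries and 0.937 between the labelled libraries. Labelled replicate 1 was as close to WT replicate 1 (r = 0.960) as the WT libraries were to each other, whereas labelled replicate 2 stood farther from both (r = 0.908 and 0.909). These correlations are across genes, which are not independent replicates. Labelled replicate 2 therefore carried the larger part of many differences, and the values of both labelled libraries are given throughout.

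Stim1 held 645 and 673 normalized counts in WT replicates 1 and 2, and 552 and 642 in labelled replicates 1 and 2. Stim2 held 665 and 782 in WT libraries against 620.2 and 696 in labelled libraries. The RNA of neither gene was thus much lower in the labelled libraries (log2 fold changes -0.15 and -0.13, limma adjusted p = 0.807 and 0.827). Counts over a whole gene do not show a deleted exon, so the deletion cannot be checked here and libraries are named by their labels. By other methods, the paper reports loss of both transcripts by RT-PCR in Treg cells of male mice. It also reports that YFP+ Treg cells of heterozygous females lacked SOCE.
Foxp3, the factor that defines Treg cells, had 8525 and 11918 normalized counts in the WT pair against 4474 and 7253 in the labelled pair (log2 fold change -0.82, limma adjusted p = 0.177). The groups did not overlap for Foxp3, which was abundant in all 4 libraries. Il2ra, the CD25 used for the sort, had 42365 and 50119 against 37216 and 48629, and these values overlapped. Ctla4, an inhibitory receptor, had 17476 and 21926 against 9261 and 9849 (log2 fold change -1.04, limma adjusted p = 0.234). Of 10 genes of Treg identity, 8 had lower log2 means in the labelled libraries and 6 lay below both WT libraries, but none was called by limma (0 of 10). DESeq2 on the 4 stimulated libraries called 4 of them lower.

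Fold changes are of labelled over WT libraries on the scale of log2(normalized count + 1). Of 15419 genes whose mean over the 8 libraries reached 10 normalized counts, 17 fell (0.110%) and 25 rose (0.162%) by more than 1.5-fold at a Benjamini-Hochberg adjusted p under 0.05 in limma. In all 42 the WT and labelled values did not overlap, which also held for 23.1% of all genes tested below WT and for 24.3% above it. The fit of the study's methods, DESeq2 on the 4 stimulated libraries alone, called 388 genes lower (2.52%) and 303 higher (1.97%). It included 15 of the 17 lower and all 25 higher genes of limma and gave no adjusted p for the other two, Nckap5 and Gjb2. At an unadjusted p under 0.05, limma held 1072 lower and 864 higher genes. The number of limma calls depended on single libraries: without WT replicate 1, WT replicate 2 or labelled replicate 2 there were 0, 0 and 0 lower and 0, 1 and 0 higher genes, and without labelled replicate 1 there were 551 and 211, including all 17 and all 25. The direction of all 42 genes and a difference above 1.5-fold remained in each of these fits. Of the 42, the figures of the study name 5 (Itgae, Il10, Batf and Tnfrsf9 among the lower, Bcl2 among the higher), and the other 37 are described here.

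**Figure D1:**
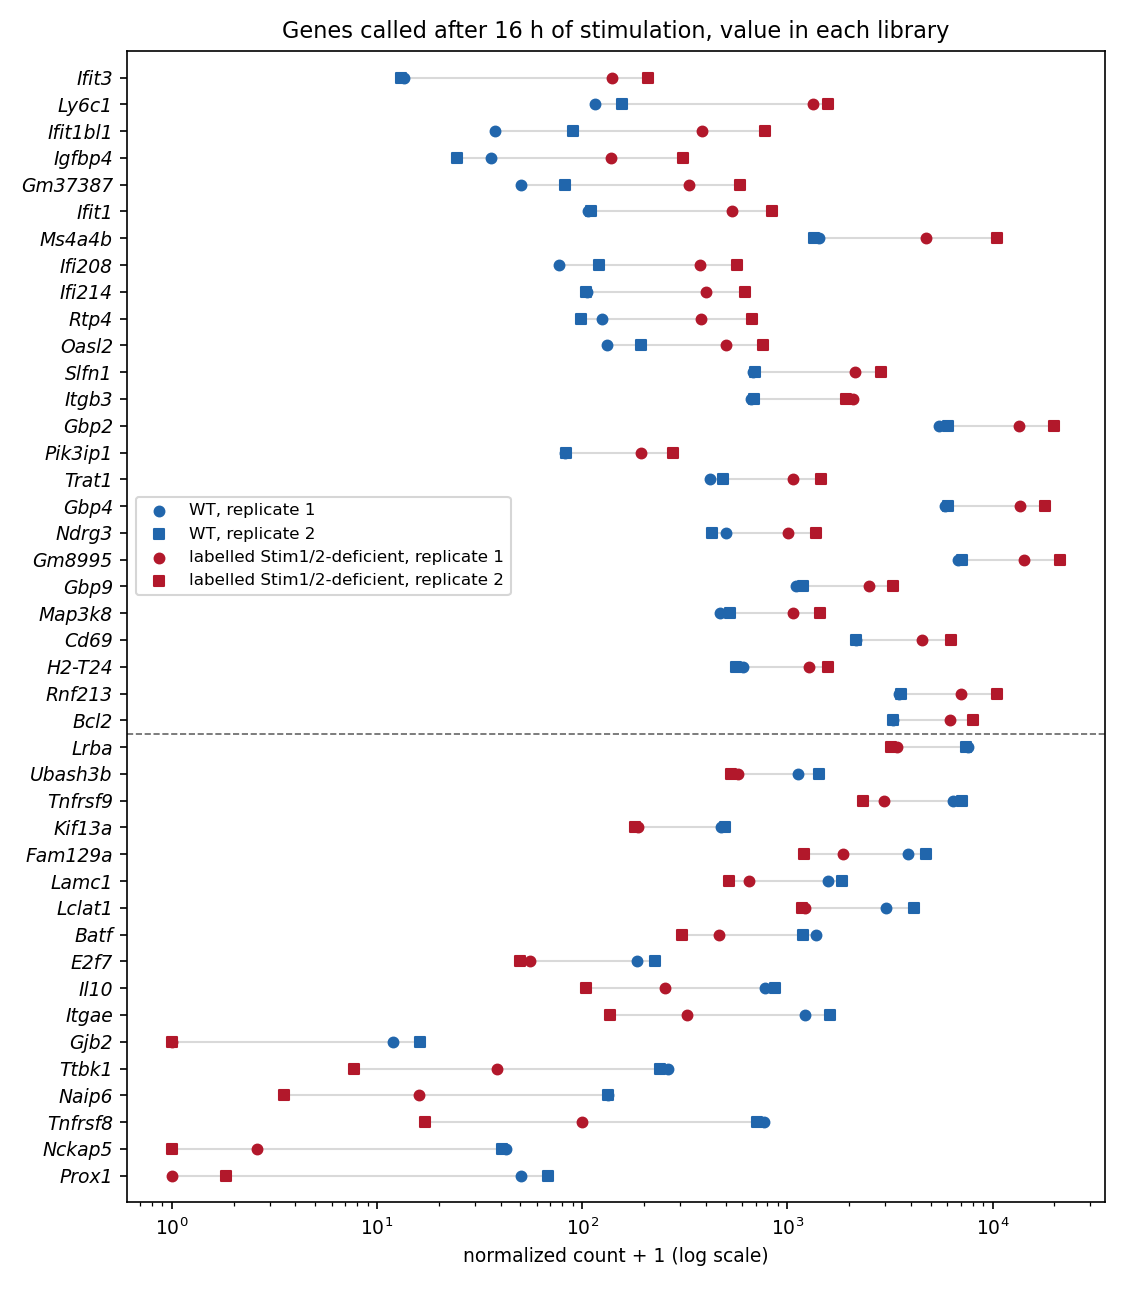
Normalized count plus 1 (log axis) of the 42 genes called by limma in each of the 4 stimulated libraries, WT in blue and labelled Stim1/2-deficient in red, with a circle for replicate 1 and a square for replicate 2. The 25 genes above the dashed line were higher and the 17 below it lower in labelled libraries. The red and blue points do not overlap for any of them.

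For 3 of the genes that fell, both labelled libraries were at or near 0. Prox1, a homeobox transcription factor known from lymphatic endothelium, had 49.1 and 66.8 normalized counts in the WT pair against 0 and 0.840 in the labelled pair, at least 22.9-fold lower. Nckap5 had 41.3 and 39.5 against 1.59 and 0, at least 15.9-fold lower. The connexin Gjb2, which forms gap junction channels, had 10.9 and 15.2 against no read in either labelled library, at least 5.15-fold lower. All of these labelled values were at or under the floor of 3 reads (limma adjusted p = 0.0313, 0.0392 and 0.0432).
Among surface and signaling genes, Tnfrsf8, which encodes the costimulatory receptor CD30, had 770.0 and 714 normalized counts in the WT pair against 99.3 and 16.0 in the labelled pair. Its log2 fold change was -4.17 (SE 0.65, limma adjusted p = 0.0392), and labelled replicate 1 kept far more counts than replicate 2. Naip6, a member of the NAIP family of cytosolic sensors, had 133 and 132 against 15.1 and 2.53 (log2 fold change -4.15, limma adjusted p = 0.0482). The tau tubulin kinase gene Ttbk1 had 260.3 and 238 against 37.3 and 6.75 (log2 fold change -3.86, limma adjusted p = 0.0482). In these 3 genes the WT libraries were close to each other, and labelled replicate 2 lay far below replicate 1.
Other lower genes had a smaller and more even difference. E2f7, an atypical E2F that represses cell cycle genes, had 185 and 225 normalized counts in WT and 54.8 and 49.0 in labelled libraries (log2 fold change -1.96, limma adjusted p = 0.0446). Lrba, whose protein keeps CTLA-4 from lysosomal degradation, had 7579 and 7437 against 3439 and 3199 (log2 fold change -1.18, SE 0.16, limma adjusted p = 0.0356). The values of Lrba were close within each genotype and far apart between them. Ubash3b, a phosphatase that dampens T cell receptor signaling, had 1127 and 1418 against 577 and 529 (log2 fold change -1.19, limma adjusted p = 0.0392). The remaining 4 were the laminin chain Lamc1 (1585 and 1852 against 646 and 519), the acyltransferase of phospholipids Lclat1 (3029 and 4133 against 1219 and 1171), Fam129a (3884 and 4755 against 1857 and 1209.8) and the kinesin Kif13a (472 and 494 against 185 and 179). Their log2 fold changes lay between -1.57 and -1.40, and the labelled libraries differed little from each other for Lclat1 and Kif13a.

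Of the 25 genes that rose, 7 were on the list of interferon-stimulated effectors and 3 on that of interferon-inducible GTPases. The 2 lists held 59 and 19 of the 15419 genes tested. Ifi214 and Rnf213, on neither list, are described with these genes. Interferons bind receptors that activate transcription factors, which bind the interferon-stimulated response element (ISRE) near target genes and induce antiviral proteins such as IFITs, OAS proteins, Schlafens and GTPases. Ifit3 had 12.5 and 12.2 normalized counts in the WT pair against 139 and 209 in the labelled pair, a log2 fold change of 3.69 (standard error, SE, of 0.45, limma adjusted p = 0.0313). Ifit1 had 106 and 109 against 536 and 845 (log2 fold change 2.63, limma adjusted p = 0.0313), and Ifit1bl1 had 36.6 and 88.8 against 383 and 775 (log2 fold change 3.23, limma adjusted p = 0.0392). IFIT proteins bind viral RNA, and all 3 genes lay higher in labelled replicate 2 than in replicate 1. Ifi208 had 76.4 and 120.0 against 376 and 570, and Ifi214, of the same HIN-200 family of DNA-binding proteins, had 104 and 103 against 402 and 621. The 2'-5' oligoadenylate synthetase-like gene Oasl2 had 131 and 192 against 503 and 759, and Rtp4 had 124 and 98.0 against 376 and 674. Slfn1, a Schlafen that is linked to T cell quiescence, had 683 and 694 against 2134 and 2871. The guanylate-binding GTPase Gbp2 was among the most abundant of them, with 5504 and 6086 normalized counts in the WT pair against 13422 and 19825 in the labelled pair (log2 fold change 1.49, limma adjusted p = 0.0392). Gbp4 (5854 and 6080 against 13563 and 17991), Gbp9 (1100 and 1195 against 2500 and 3279) and the ubiquitin ligase Rnf213 (3483 and 3572 against 6991 and 10536) moved in the same direction, with log2 fold changes of 1.28 to 1.39. Members of the Ifit, Ifi200, Gbp and Schlafen families share sequence, and how reads on near-identical copies were counted bears on each single value.

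The promoters of the called genes were searched for the ISRE because these genes moved together. RefSeq windows (GRCm38.p6) were matched by symbol for 9882 of the 15419 genes tested, and the 250 bases before each annotated start were searched on both strands for GAAANNGAAA, which reads TTTCNNTTTC on the other strand. The stretches below carry a match in a gene that rose and are printed in the direction of the gene, 5' to 3', with the matched letters in capitals.
Ifit1 (chr19:34640779-34640838, plus strand): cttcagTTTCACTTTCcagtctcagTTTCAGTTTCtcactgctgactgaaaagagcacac
Ifit3 (chr19:34583382-34583441, plus strand): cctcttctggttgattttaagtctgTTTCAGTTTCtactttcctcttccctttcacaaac
Gbp2 (chr3:142620579-142620638, plus strand): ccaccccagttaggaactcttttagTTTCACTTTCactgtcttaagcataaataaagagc
Ifi208 (chr1:173673582-173673641, plus strand): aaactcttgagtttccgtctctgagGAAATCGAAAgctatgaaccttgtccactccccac
Ifi214 (chr1:173536002-173536061, minus strand): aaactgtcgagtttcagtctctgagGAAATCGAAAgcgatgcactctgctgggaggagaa
The match nearest to the start ended 75 bases before it in Ifit1, 112 in Ifit3, 49 in Gbp2, 48 in Ifi208 and 69 in Ifi214, and Ifit1 and Ifit3 held 2 matches each. Ifit1bl1 held 1 match in each of its annotated promoters. In all, 6 of the 16 genes called higher that had a promoter entry held a match (37.5%), as did 0 of 13 genes called lower, against 3.37% of all genes tested with an entry and 2.98% of all 32851 RefSeq windows. Oasl2, Slfn1, Rnf213 and Ly6c1 held none in this window. A match is a string of letters and was not tested for binding.

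The wider classes showed how far this pattern extended. Of 59 interferon-stimulated effector genes tested, 54 had a higher log2 mean in labelled libraries (51.4% of all genes had a higher and 48.5% a lower one) and 45 lay above both WT libraries (76.3%, against 24.3% of all genes), while 1 lay below both. Their median log2 fold change was 0.88, against 0.02 for all genes tested, with quartiles of 0.45 and 1.37 and single members from -1.05 to 4.75. Limma called 7 higher and 0 lower, and DESeq2 on the 4 stimulated libraries called 27 higher and 0 lower. Over all genes tested, limma called 0.162% higher and DESeq2 1.97%. The largest value was that of Ifit3b, which had no read in WT libraries and 21.4 and 31.2 normalized counts in labelled libraries (limma adjusted p = 0.0594). The ubiquitin-like modifier Isg15 had 127 and 129 against 345 and 313, and the antiviral GTPase Mx2 had 6.24 and 7.59 against 33.4 and 60.8. Both were called by DESeq2 and not by limma (limma adjusted p = 0.0624 and 0.0546). Rsad2, which encodes viperin, had 14.8 and 16.7 in the WT pair against 4.76 and 43.1 in the labelled pair, so that the labelled libraries lay on either side of WT. Ifit3b, Isg15, Mx2 and Rsad2 were chosen after their values were seen.
Interferon-inducible GTPases, which attack the vacuoles of intracellular microbes, were as uniform. Of 19 tested, 18 had a higher mean and 17 lay above both WT libraries, with a median log2 fold change of 0.90, and limma called 3 higher and DESeq2 13. Tgtp1 had 295 and 233 normalized counts in WT libraries against 666 and 904 in labelled ones (limma adjusted p = 0.0537), and Gbp11 had 27.3 and 46.3 against 144 and 205. All 10 GTPases with a promoter entry held the ISRE letters (100%). The letters TTCNNNGAA of the gamma-activated site, which can overlap an ISRE match, stood in 6 of them (60%), against 7.29% of all genes tested with an entry.
The sensors, receptors and factors of the pathway differed less. Of 26 tested, 21 had a higher mean and 16 lay above both WT libraries, with a median of 0.44, and 0 were called by limma against 10 higher by DESeq2. Irf7, the factor that amplifies interferon production, had 158 and 151 against 347 and 476 (log2 fold change 1.39, limma adjusted p = 0.0537). Tlr7, a sensor of single-stranded RNA, had 281 and 223 against 565 and 800.4 (log2 fold change 1.42, limma adjusted p = 0.116). The receptor chain Ifnar1 had 1266 and 1382 against 2203 and 3402, and Ifngr1, which binds interferon gamma, overlapped between groups with 3842 and 4648 against 4015 and 4531. Of the interferons themselves, only interferon gamma is given here. Its gene Ifng had 899 and 322 normalized counts in the WT pair against 1201 and 198 in the labelled pair, which overlapped. The medians of the 3 lists were 0.69, 0.73 and 0.33 in labelled replicate 1 and 1.10, 1.07 and 0.62 in labelled replicate 2, in the order effectors, GTPases and sensors, when each library was set against the mean of both WT libraries.

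**Figure D2:**
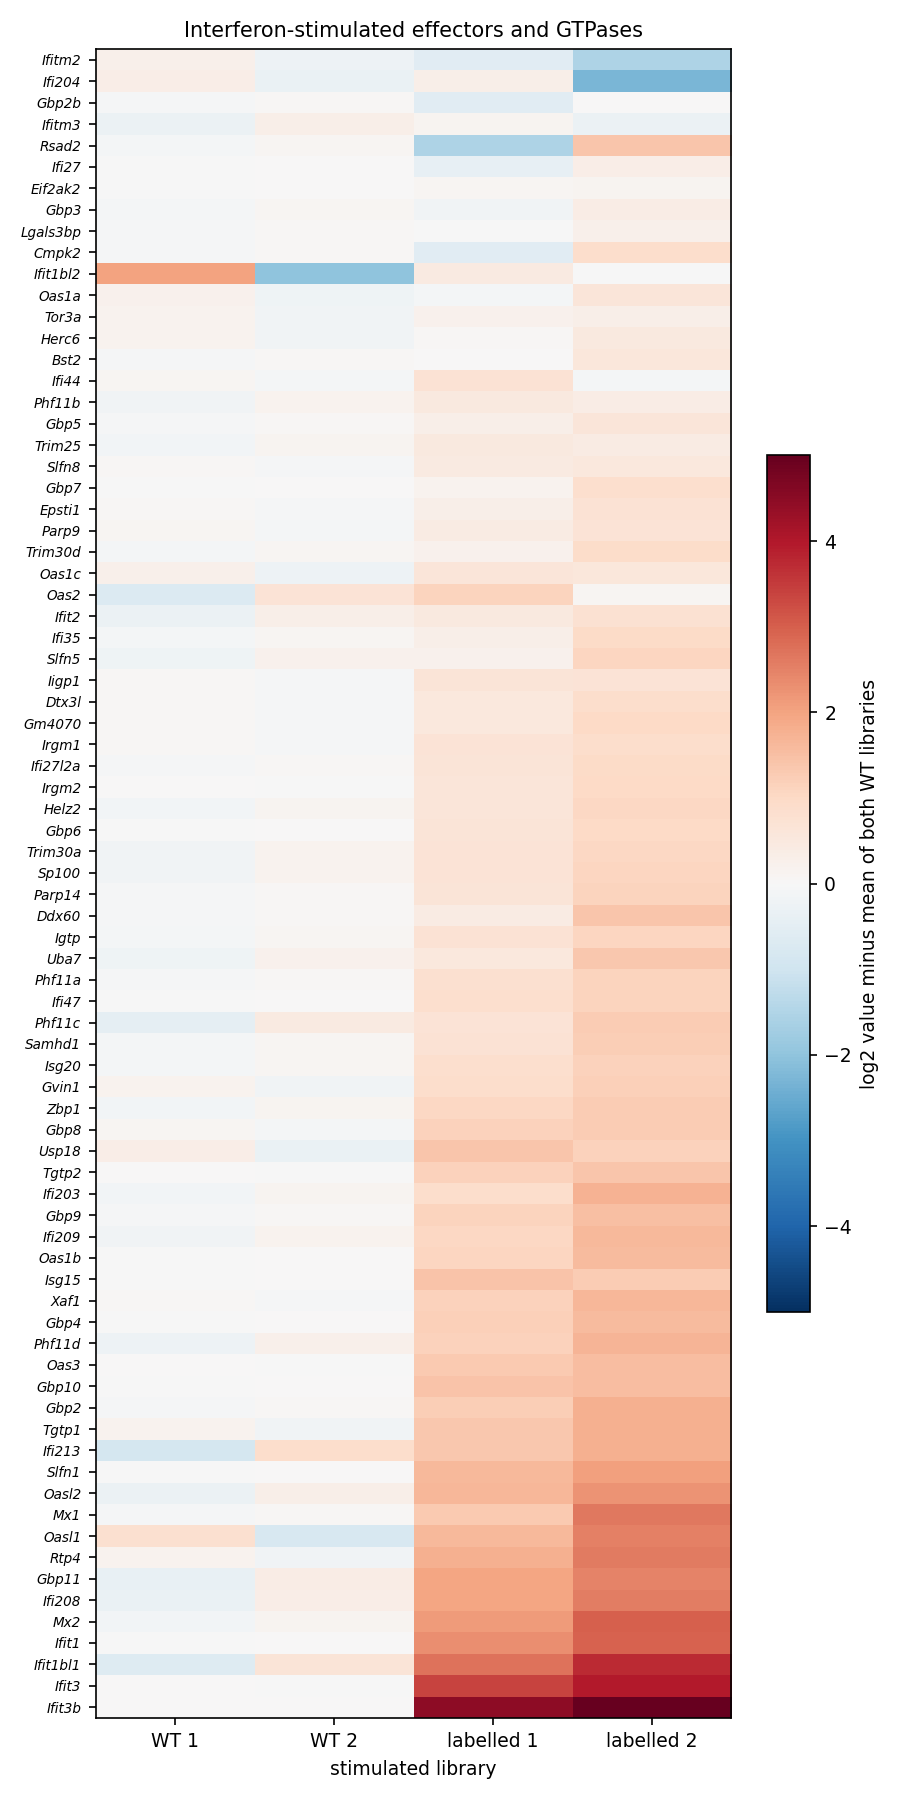
Log2 value minus the mean of both WT libraries (color) for every interferon-stimulated effector and GTPase tested (rows) in the 4 stimulated libraries (columns), ordered by fold change. Most rows are red in both labelled libraries and deeper in labelled replicate 2, and Ifit3b and Ifit3 at the foot show the largest differences.

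MHC class I presentation, which displays peptides to CD8 T cells and is induced by interferons, was also higher. Of 24 genes tested, 22 had a higher mean and 18 lay above both WT libraries (75%), with a median log2 fold change of 0.39 and 1 gene called by limma against 7 by DESeq2. That gene was H2-T24, of the nonclassical class I family, with 605 and 560.4 normalized counts in the WT pair against 1273 and 1585 in the labelled pair (log2 fold change 1.29, limma adjusted p = 0.0482). H2-M3, which presents formylated peptides, had 243 and 265 against 378 and 593, and H2-T10 had 81.1 and 81.2 against 148 and 227. The light chain B2m had 34596 and 37222 against 48820 and 52046, whereas the classical heavy chain H2-D1 had 7441 and 9076 against 8649 and 10821, which overlapped. The class I members thus differed by degree, with nonclassical genes among the largest differences.
For MHC class II, which marks antigen-presenting cells, no direction was shared: 5 of 12 genes were higher and 7 lower, and the median was -0.21. It was 0.80 in labelled replicate 1 and -1.11 in replicate 2. B cell markers summed to 1376 and 261 normalized counts in WT libraries and to 2089 and 480.4 in labelled libraries, so that they moved with class II by library. Their part in the class II values was not tested.
Cytosolic sensors of the NLR and inflammasome class held opposite members. Of 20 tested, 13 were lower and 9 lay below both WT libraries, and 3 lay above both. Beside Naip6, the paralogs Naip5 (168 and 105 against 40.5 and 5.07) and Naip2 (225 and 185 against 93.7 and 85.3) were called lower by DESeq2 and not by limma. The 3 genes share sequence, and the split of reads among them is uncertain. Casp1, the protease of inflammasomes, had 372 and 359.9 against 187 and 163, and was called lower by DESeq2 alone. Nod1, a sensor of bacterial peptidoglycan, had 118 and 106 against 183 and 359.7 (log2 fold change 1.18, limma adjusted p = 0.149).

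The gene with the smallest adjusted p was Ly6c1, which encodes a surface protein of the Ly6 family found on memory and lymph node-homing T cells. Its normalized counts were 115 and 156 in the WT pair against 1328 and 1572 in the labelled pair, a log2 fold change of 3.43 (SE 0.28, limma adjusted p = 0.00304). It was the only gene that edgeR also called (adjusted p = 0.00465), and its fold change stayed between 3.21 and 3.64 with each library left out in turn. Ly6a, which encodes Sca-1, had 3140.1 and 2878 against 5966 and 6096 (log2 fold change 1.00, limma adjusted p = 0.282) and was called by DESeq2 alone. Of 10 Ly6 genes tested, 8 were higher and 5 lay above both WT libraries. Ly6c2, a near-identical neighbor of Ly6c1, had 35.1 and 4.56 against 114 and 16.9, which overlapped.
Genes of naive and recirculating T cells were higher in labelled libraries as a class. Of 36 tested, 31 had a higher mean and 29 lay above both WT libraries, with a median of 0.91, and limma called 4 higher and DESeq2 20 higher and 1 lower. Without the 2 members that the study's figures name, 27 of 34 lay above both (79.4%) and the median was 0.91. Igfbp4, which binds insulin-like growth factors, had 35.1 and 23.5 normalized counts in the WT pair against 137 and 309 in the labelled pair (log2 fold change 2.80, limma adjusted p = 0.0392). Ms4a4b, a membrane protein of naive T cells, had 1426 and 1355 against 4713 and 10464 (log2 fold change 2.34, limma adjusted p = 0.0392). Both genes were far higher in labelled replicate 2 than in replicate 1, which itself lay above WT. Pik3ip1, an inhibitor of phosphoinositide 3-kinase that is lost on activation, had 81.8 and 82.8 against 192 and 277 (log2 fold change 1.48, limma adjusted p = 0.0490).
Among genes of recirculation, S1pr1, the receptor that guides exit from lymph nodes, had 645 and 829 against 1274 and 3146 (limma adjusted p = 0.168). Lef1 and Satb1, transcription factors of resting T cells, had 1551 and 1650 against 2597 and 3980 and 5157 and 3519 against 13410 and 13761 (limma adjusted p = 0.110 and 0.0703). None of these 3 was called by limma, and DESeq2 called Lef1 and Satb1. Of the 5 members with a lower mean, 2 lay below both WT libraries. Il7r, the receptor for the survival cytokine IL-7, had 1125 and 930.1 against 676 and 396 and was called lower by DESeq2, and Ramp1, a partner of calcitonin-type receptors, had 49.1 and 84.3 against 42.1 and 27.0.
None of the 29 naive T cell genes with a promoter entry held the ISRE letters, near the 3.37% of all genes tested with an entry, and 22 of 46 interferon effectors did (47.8%). The called gene Cd69, whose protein retains T cells by binding S1PR1, had 2161 and 2165 against 4521 and 6289 (log2 fold change 1.30, limma adjusted p = 0.0481). Itgb3, the beta 3 integrin chain, had 664 and 688 against 2098 and 1922 (log2 fold change 1.57, limma adjusted p = 0.0392), with labelled replicate 1 above replicate 2. The last 3 genes that rose were Ndrg3 (503 and 428 against 1007 and 1385), Gm8995 (6804 and 7087 against 14192 and 21400.1) and Gm37387 (49.1 and 81.2 against 330.3 and 588), with log2 fold changes of 1.34, 1.33 and 2.78.

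Genes of effector and tissue Treg cells were the counterpart. Of 34 tested, 29 were lower and 23 lay below both WT libraries, with a median log2 fold change of -1.52, and limma called 4 lower and DESeq2 16. Of these 34, the figures of the study name 11. Among the 23 others, 18 were lower, 14 lay below both (60.9%, against 23.1% of all genes), 1 was called by limma and 10 by DESeq2, and the median was -1.38. The study chose the named genes on these samples, so they are no independent evidence of the direction. Beside Tnfrsf8, S100a4, a calcium-binding protein of effector and migrating cells, had 216 and 270.3 normalized counts in the WT pair against 58.8 and 22.8 in the labelled pair (log2 fold change -2.69, limma adjusted p = 0.0537). Arnt2 had 200 and 441 against 77.0 and 10.1. Ecm1, which encodes a secreted matrix protein, went the other way with 1309 and 1888 against 2589 and 3345, and was called higher by DESeq2. The median of the class was -1.01 in labelled replicate 1 and -2.14 in replicate 2.
S100, annexin and galectin genes leaned the same way, with 21 of 26 lower, 16 below both WT libraries and a median of -0.54. S100a6 had 430.2 and 397 against 158 and 80.2, and DESeq2 called it lower.
Receptors for chemoattractants, which guide cells into tissues, had a median of -0.88, and 10 of 29 lay below both WT libraries and 5 above. Without the 4 members that the study's figures name, the median was -0.30 and 6 of 25 lay below both, near the 23.1% of all genes. Gpr15, a homing receptor for the colon, had 265 and 326 against 61.9 and 24.5 (log2 fold change -2.88, limma adjusted p = 0.0618). The inflammatory receptors Ccr2 (943 and 752 against 376 and 172) and Ccr8 (799 and 751 against 407 and 187) were called lower by DESeq2. The lymph node receptor Ccr7 (1365 and 1128 against 2192 and 2036) and the gut receptor Ccr9 (111 and 123 against 217 and 348) were called higher by it. The receptors therefore split, and without labelled replicate 2 the median was -0.14.
Cytokine ligands had 24 of 30 genes lower and 12 below both WT libraries (40%, against 23.1% of all genes), with a median of -0.68. Taking labelled replicate 1 alone it was -0.13, and taking replicate 2 alone -1.72. Without the 4 members that the study's figures name, 9 of 26 lay below both (34.6%) and the median was -0.68. Il9 had 182 and 53.9 normalized counts in the WT pair against 15.9 and 1.69 in the labelled pair (limma adjusted p = 0.165). Il21 had 149 and 153 against 143 and 10.1, and Il17f had 193 and 144 against 115 and 3.38. The groups did not overlap for any of these 3, but the values of Il21 and Il17f in labelled replicate 1 were close to WT. The type 2 cytokines Il4 (164 and 72.9 against 100.1 and 66.7), Il5 (77.9 and 16.7 against 33.4 and 5.07) and Il13 (313 and 94.9 against 146 and 38.8) overlapped between groups.
Among cytokine receptors, Il1r2, the decoy receptor for IL-1, had 696 and 563 against 146 and 35.5 (log2 fold change -3.10, limma adjusted p = 0.0537), and Il12rb2, a chain of the IL-12 receptor, had 371 and 314 against 1278 and 768 (log2 fold change 1.54, limma adjusted p = 0.0624). DESeq2 called the first lower and the second higher. The list as a whole had 18 genes higher and 21 lower.

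Costimulatory and inhibitory receptors were mixed. Of 20 TNF receptor family genes, 10 were higher and 10 lower, and 6 lay on each side of both WT libraries. Limma called 2 of them lower, Tnfrsf8 and Tnfrsf9, and 0 higher. Tnfrsf1b, the receptor TNFR2 of activated Treg cells, had 2743 and 4115 normalized counts in the WT pair against 1391 and 1537 in the labelled pair, and Fas, the death receptor, had 374 and 232 against 628 and 803. DESeq2 called the first lower and the second higher (limma adjusted p = 0.110 and 0.0782). Among immunoglobulin superfamily receptors and ligands, 15 of 34 were higher and 19 lower. Of these 34, 8 lay above and 14 below both WT libraries (41.2% below, against 23.1% of all genes). Without the 6 members that the study's figures name, 8 of 28 lay on each side. Cd274, which encodes PD-L1 and is induced by interferons, had 2547 and 2374 against 5343 and 6538 (log2 fold change 1.26, limma adjusted p = 0.0637). Cd200r1, an inhibitory receptor, had 424 and 545 against 85.0 and 59.9 (log2 fold change -2.73, limma adjusted p = 0.0650). Both were called by DESeq2, and both had labelled libraries well apart from WT.
T cell receptor signaling genes leaned higher by a small amount. Of 42 tested, 33 had a higher mean and 24 lay above both WT libraries (57.1%, against 24.3% of all genes), with a median of 0.22. Limma called 1 higher (Pik3ip1) and 1 lower (Ubash3b). Txk, a kinase of the Tec family, had 602 and 840 against 1595 and 2229. The related kinase Tec had 432 and 323 against 197 and 123. DESeq2 called Txk higher and Tec lower, so that kinases of 1 family differed in opposite directions. The adaptor Trat1, which stabilizes the receptor complex at the surface, rose from 419 and 487 to 1062 and 1458 (log2 fold change 1.46, limma adjusted p = 0.0392). Map3k8, the kinase TPL2 that links NF-kB to ERK, rose from 468 and 526 to 1062 and 1438 (log2 fold change 1.31, limma adjusted p = 0.0432).
Calcium handling genes leaned lower by a small amount, with 26 of 37 lower and a median of -0.08. Of them, 13 lay below both WT libraries (35.1%, against 23.1% of all genes) and 6 above (16.2%, against 24.3%). Atp2b4, a calcium pump of the plasma membrane, had 1620 and 1463 against 676 and 235 (log2 fold change -1.95, limma adjusted p = 0.0690). Itpr1, the receptor that releases calcium from the store, had 2830 and 2240 against 1595 and 1266 and was called lower by DESeq2. Of 36 NFAT, calcineurin and calcium-responsive genes, 22 were lower, with a median of -0.16. In this list 12 lay below both WT libraries (33.3%, against 23.1% of all genes) and 6 above (16.7%). There were 0 calls by limma and 3 lower and 1 higher by DESeq2. Egr2 had 1376 and 1145 against 765 and 536 and Egr1 had 1613 and 2240 against 2694 and 4762, so that these related zinc finger factors lay on opposite sides of WT, each called by DESeq2. For NF-kB subunits, inhibitors and targets, 20 of 29 were higher, with a median of 0.26. Of these 29, 13 lay above both WT libraries (44.8%, against 24.3% of all genes) and 4 below (13.8%). The inhibitor Nfkbie (390.5 and 299 against 607 and 709) and the related gene Nfkbiz (1673 and 1831 against 2521 and 4432) were called higher by DESeq2. No member of that list was called lower. Jun, a subunit of AP-1, had 625 and 801 against 1487 and 1887 (limma adjusted p = 0.0616).

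**Figure D3:**
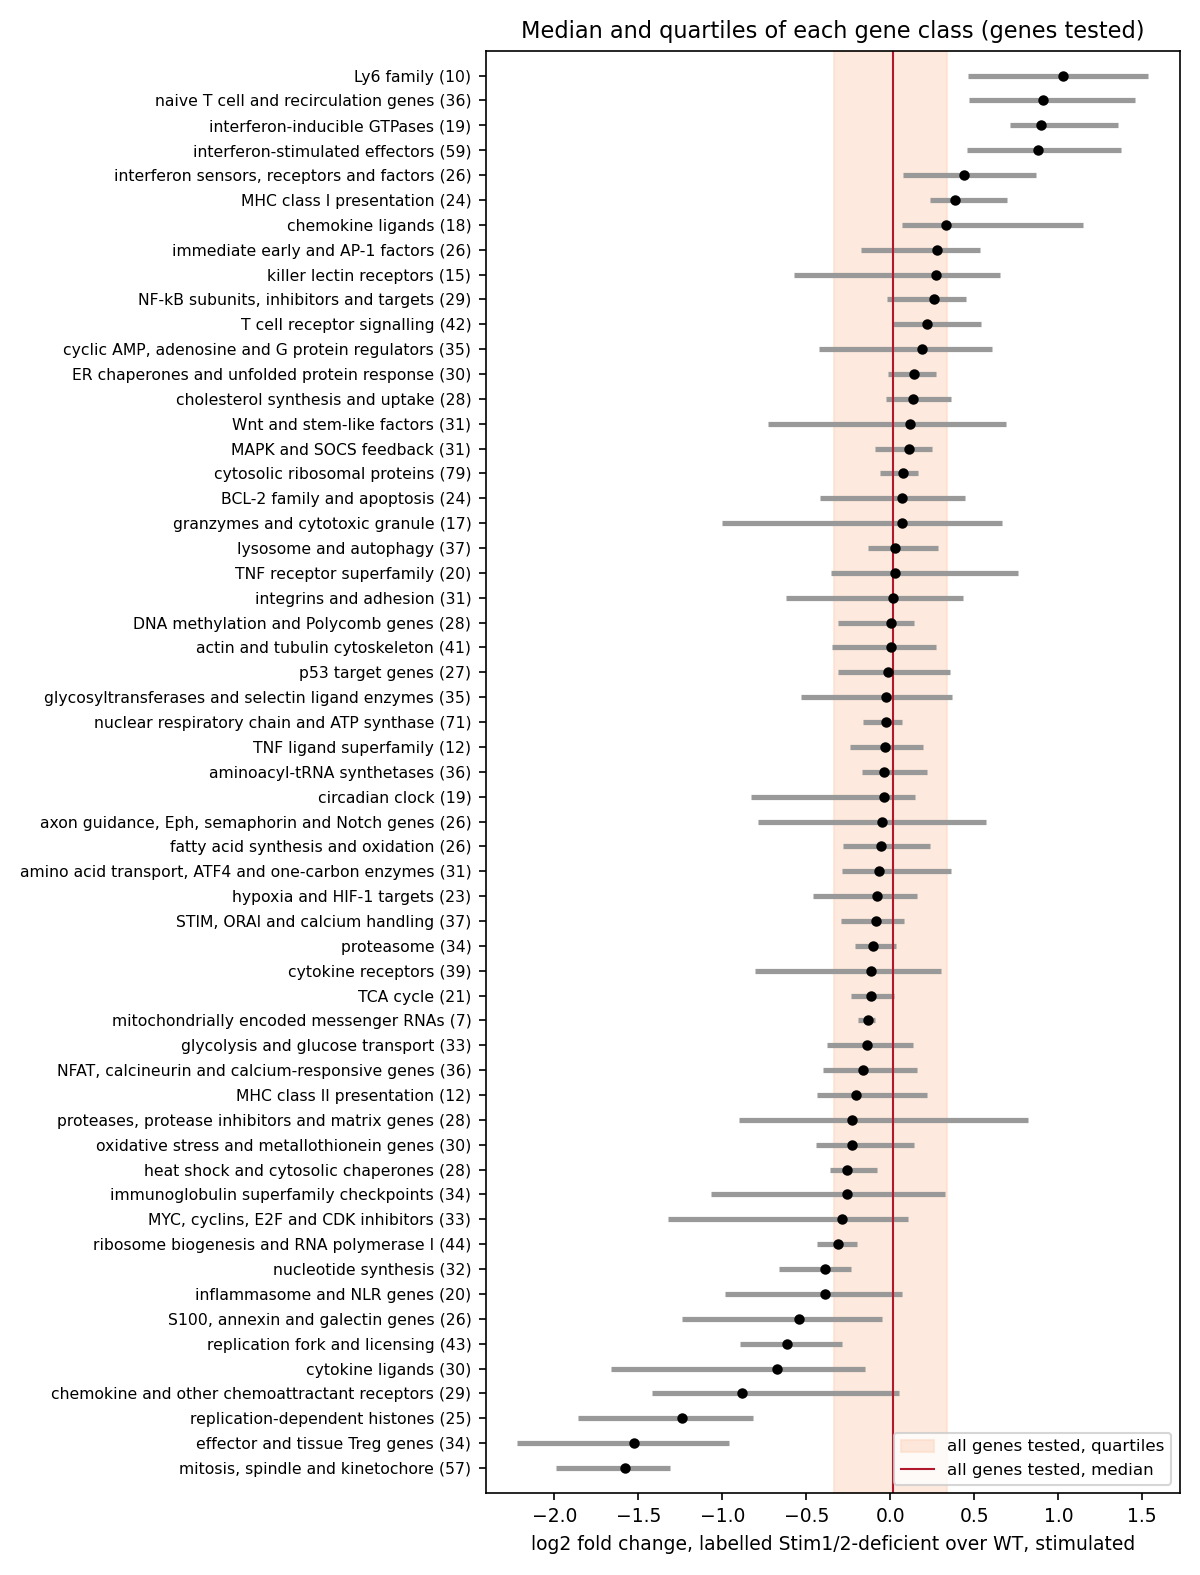
Median (point) and quartiles (bar) of the log2 fold change of labelled over WT stimulated libraries for each gene class, with the number of genes tested in brackets. The shaded band and red line give the quartiles and the median, 0.02, of all 15419 genes. Ly6, naive, interferon and MHC class I genes lie at the top, and mitosis, effector Treg and histone genes lie at the bottom, with medians from 1.03 to -1.58.

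Mitosis genes had the lowest median of the functional classes, next to effector Treg genes, and without WT replicate 1 the order of these classes turned (-1.53 and -1.57). Of 57 genes of mitosis, the spindle and the kinetochore, 56 were lower and 55 lay below both WT libraries (96.5%, against 23.1% of all genes), with a median log2 fold change of -1.58. Limma called 0 of them and DESeq2 35 lower. Kif18b, a kinesin that shortens microtubules, had 119 and 137 normalized counts in the WT pair against 27.8 and 3.38 in the labelled pair (log2 fold change -3.52, limma adjusted p = 0.110). Kif2c had 153 and 238 against 58.8 and 10.1, and Tpx2, a spindle assembly factor, had 876 and 744 against 314 and 41.4. Mki67, the proliferation marker Ki-67, had 8560 and 7417 against 2925 and 913 (log2 fold change -2.29, limma adjusted p = 0.116). In these 4 genes labelled replicate 1 lay below both WT libraries and labelled replicate 2 far below replicate 1. The median of the class was -1.08 in labelled replicate 1 and -2.20 in labelled replicate 2.
Replication-dependent histones, whose messenger RNAs accumulate in S phase and lack a poly(A) tail, followed, with 25 of 25 lower and 19 below both WT libraries. Their median was -1.24, and Hist1h1e, a linker histone, had 365 and 402 against 152 and 70.9. The libraries were made from poly(A) RNA, so that these values reflect a small and selected part of histone RNA. Of 43 genes of the replication fork and licensing, 40 were lower and 34 lay below both WT libraries, with a smaller median of -0.62, or -0.29 without labelled replicate 2. Gins3 had 178 and 160.2 against 71.5 and 77.7, and Mcm5, of the replicative helicase, had 1286 and 1365 against 949 and 632. Nucleotide synthesis genes had a median of -0.39 with 25 of 32 below both WT libraries. Rrm2, the regulated subunit of ribonucleotide reductase, had 1669 and 1338 against 715 and 295, and Tyms, thymidylate synthase, had 1048 and 909 against 544 and 284. Samhd1, which degrades nucleotides, restricts viruses and is induced by interferons, was the exception with 16418 and 18965 against 29493 and 41454 (log2 fold change 0.99, limma adjusted p = 0.0661).
Regulators of cell cycle entry also leaned lower, by less and with members on both sides. Of 33 MYC, cyclin, E2F and CDK inhibitor genes, 24 were lower, 17 lay below and 7 above both WT libraries, and the median was -0.29, with E2f7 as the only member called by limma. Myc itself had 4677 and 5418 normalized counts in the WT pair against 4710 and 4725 in the labelled pair, and Ccnd2, a D-type cyclin, had 14738 and 15281 against 15736 and 13730. Neither gene separated the groups. The mitotic cyclin Ccna2 had 1237 and 1114 against 577 and 271, and Mxd1, an antagonist of MYC, had 1049 and 986 against 3012 and 4507 (log2 fold change 1.86, limma adjusted p = 0.0627). DESeq2 called Ccna2 lower and Mxd1 higher. Among the promoters, the letters TTTGAA of the cell cycle homology region, searched on both strands, stood in 20 of 50 mitosis genes with an entry (40%), against 13.3% of all genes tested with an entry. The same letters stood in 4 of 10 interferon-inducible GTPases and 14 of 46 interferon effectors (30.4%), so they were not particular to the lower classes.
Ribosome biogenesis, a target of MYC, had a median of -0.31 with 26 of 44 genes below both WT libraries, and none was called by either test. Ncl, the nucleolar protein nucleolin, had 46420 and 41963 against 38130 and 23085. Without labelled replicate 2 the median was -0.10. The 79 ribosomal protein genes had a median of 0.08 and members between -0.76 and 0.44. Bulk RNA cannot tell fewer cells in division from less RNA per dividing cell.

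**Figure D4:**
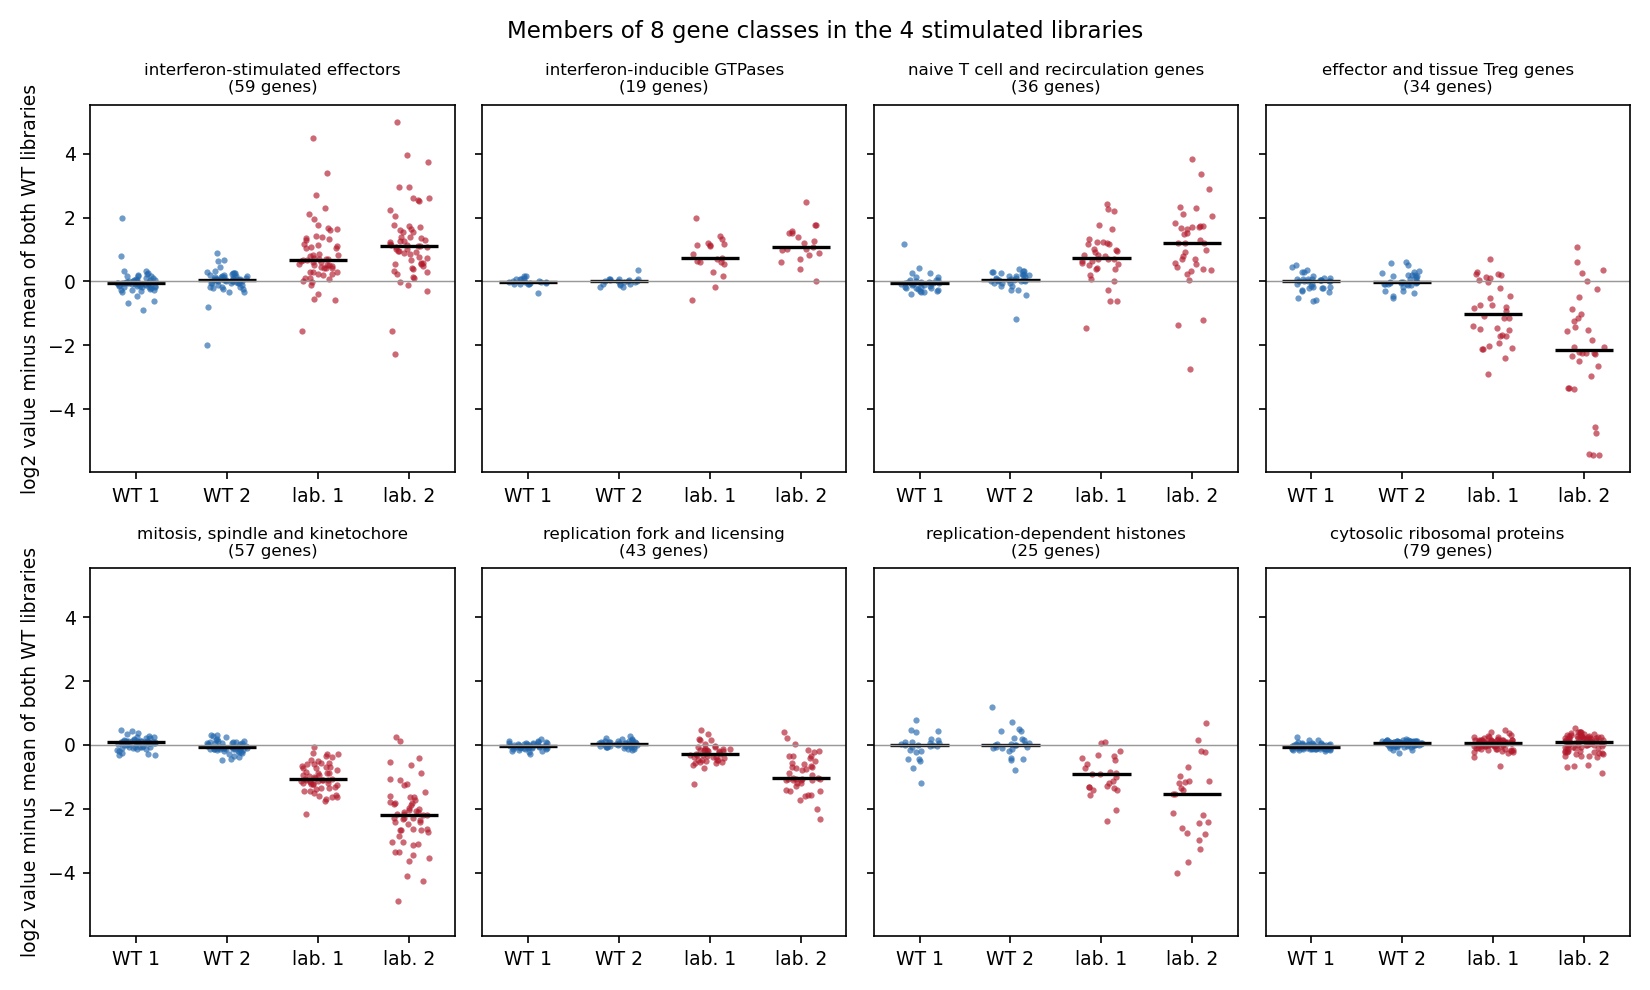
Log2 value minus the mean of both WT libraries for each member (dot) of 8 gene classes in the 4 stimulated libraries, WT in blue and labelled in red, with the median as a black line. Mitosis genes have medians of -1.08 and -2.20 in labelled replicates 1 and 2 and interferon effectors 0.69 and 1.10, while ribosomal proteins stay near 0.

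After stimulation, metabolic and protein quality control classes lay close to the median of all genes. Nuclear genes of the respiratory chain had a median of -0.03 over 71 genes, with 8 above and 11 below both WT libraries, and 0 calls by limma or DESeq2. The 21 TCA cycle genes had a median of -0.12 and the 7 mitochondrial messenger RNAs -0.13, again with 0 calls. All 7 of the latter were lower, and 4 lay below both WT libraries (57.1%, against 23.1% of all genes). For glycolysis and glucose transport the median was -0.14 over 33 genes, with 13 below and 4 above both WT libraries. The study's figures name 4 of those genes, and the 29 others had a median of -0.10. Proteasome genes centered on -0.11, and of 0.05 with labelled replicate 2 left out. Cytosolic chaperones had 21 of 28 lower with a median of -0.26, and genes of the endoplasmic reticulum and unfolded protein response 22 of 30 higher with a median of 0.14. Dnajb9, a chaperone induced by that response, had 169 and 115 normalized counts in WT libraries against 305 and 301 in labelled libraries, and Xbp1, its transcription factor, had 1748 and 2017 against 2610.1 and 3220.0. DESeq2 called both higher (limma adjusted p = 0.0832 and 0.403). Cholesterol synthesis and uptake had 19 of 28 higher, a median of 0.13 and 0 calls.
Among survival genes, the class as a whole was balanced, with 8 above and 7 below both WT libraries of 24 tested. These were 33.3% and 29.2%, against 24.3% and 23.1% of all genes. Bcl2l11, the death-promoting BIM, had 581 and 736 against 1720.0 and 1753 (log2 fold change 1.41, limma adjusted p = 0.121). DESeq2 called Bcl2l11 higher. Its protein opposes that of Bcl2, which the study's figures name and which was higher as well.
Enzymes and matrix proteins gave single large differences without a class direction. Spock2, a secreted proteoglycan, had 136 and 223 against 32.6 and 4.22 (log2 fold change -3.73, limma adjusted p = 0.0537), and Timp2, an inhibitor of metalloproteinases, had 405 and 444 against 168 and 70.9. Gcnt1, a glycosyltransferase that builds selectin ligands, had 563 and 572 against 226 and 92.9. All 3 were called lower by DESeq2. Nfil3, a factor of the circadian class, had 497 and 442 against 212 and 81.9 and was called lower by DESeq2 too.

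DESeq2 on the 4 stimulated libraries also gave large differences in genes of low level that limma did not call. Muc16, a membrane mucin, had 132 and 139 normalized counts in WT replicates 1 and 2 against 19.1 and 0.840 in labelled replicates 1 and 2 (log2 fold change -4.49, limma adjusted p = 0.108). Tns4, a tensin of focal adhesions, had 84.2 and 70.6 against 8.73 and 0.840, and Mapk10, the JNK3 kinase, had 51.4 and 46.3 against 5.56 and 0. Labelled replicate 2 was at or under the floor of 3 reads in all 3 genes, and replicate 1 was not. Vipr2, a receptor for vasoactive intestinal peptide, had 28.8 and 101 against 6.35 and 0, with WT libraries that differed from each other as well. In the other direction, Cyp2d22, a cytochrome P450, had 10.9 and 6.07 against 38.1 and 111, and Cxcl9, a chemokine induced by interferon gamma, had 12.5 and 2.28 against 161 and 14.4. The labelled libraries of Cxcl9 were farther apart than labelled replicate 2 was from WT replicate 1.

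The same genes were then read in unstimulated cells, where other libraries of both genotypes were compared. All 17 genes called lower after stimulation had a lower mean in unstimulated labelled libraries, and 22 of the 25 called higher had a higher mean. The exceptions were Gbp2, Map3k8 and Trat1. Of all 15419 genes tested, 7763 had a lower and 7656 a higher mean in unstimulated labelled libraries. Before stimulation Gbp2 stood at 671 and 635 normalized counts in WT cells and at 608 and 574 in labelled cells (log2 fold change -0.14, against 1.49 after stimulation). Map3k8 had log2 fold changes of -0.15 and 1.31, and Trat1 of -0.06 and 1.46, before and after stimulation. The unadjusted p of the interaction of genotype and stimulation in limma was 2.0e-04 for Gbp2, 6.0e-04 for Map3k8 and 6.5e-04 for Trat1, and no gene passed an adjusted p under 0.05 (0 of 15419). At an unadjusted p under 0.05, 1247 genes held an interaction of more than 1.5-fold, edgeR called 0 and DESeq2 on 8 libraries called 49. That genotype acts differently after stimulation was therefore not shown for any gene by limma. The medians of the classes in unstimulated cells were 0.38 for interferon effectors, 0.32 for GTPases, 0.76 for naive genes, -2.28 for effector Treg genes and -2.21 for mitosis genes, against 0.88, 0.90, 0.91, -1.52 and -1.58 after stimulation. Several metabolic and protein quality control classes that lay near 0 after stimulation had lower medians before it. Against -0.01 for all genes, these were -0.55 for the respiratory chain (66 of 71 lower) and -0.62 for the proteasome (33 of 34). They were -0.40 for the TCA cycle, -0.35 for glycolysis and -0.43 for the unfolded protein response. Whether these classes differed between the states was not tested.

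**Figure D5:**
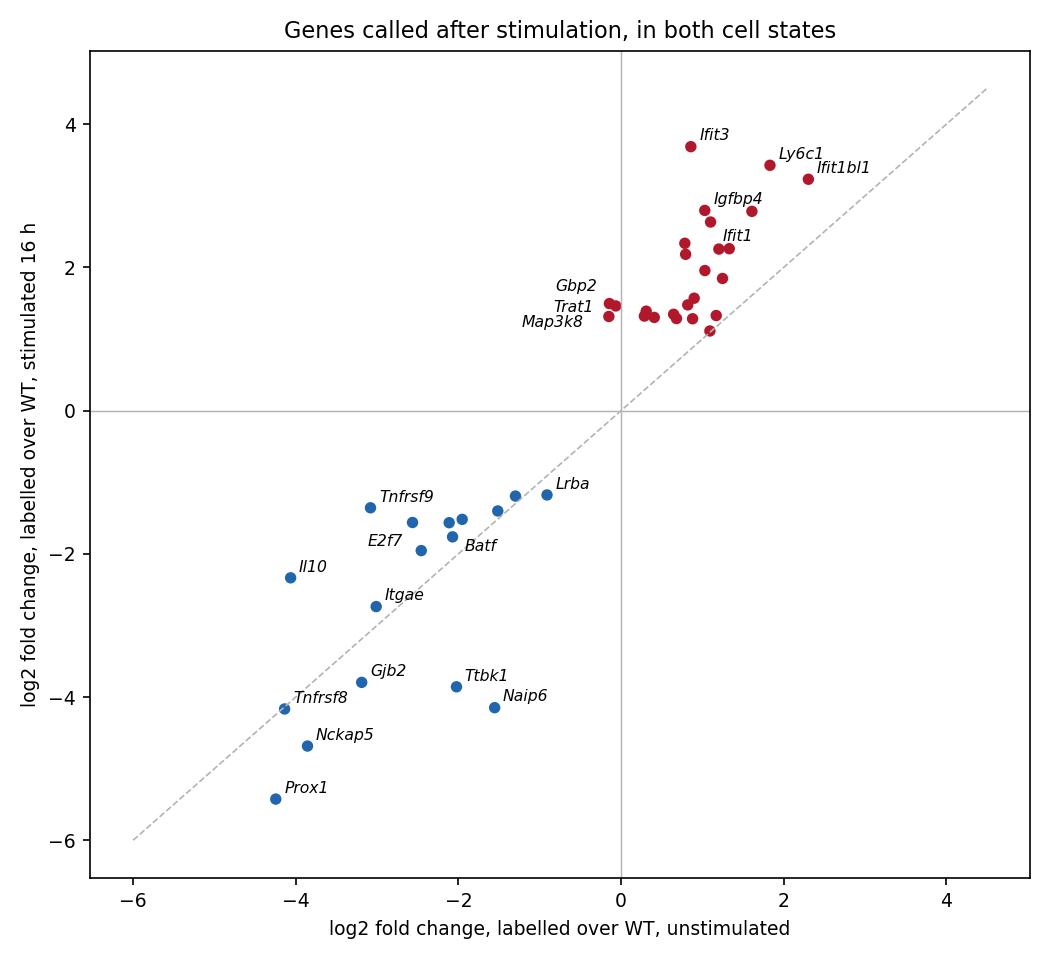
Log2 fold change of labelled over WT libraries in unstimulated cells (horizontal axis) and after 16 h of stimulation (vertical axis) for the 42 genes called by limma after stimulation, lower genes in blue and higher genes in red, with equal values on the dashed line. Gbp2, Map3k8 and Trat1 lie left of 0 on the horizontal axis and above 1.3 on the vertical axis.

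Transcripts of other cell types varied between the stimulated libraries. The 14 B cell markers summed to 1376, 261, 2089 and 480.4 normalized counts in WT replicates 1 and 2 and labelled replicates 1 and 2, and 10 markers of CD8 T and NK cells to 706, 263, 1391 and 434. The sums were highest in labelled replicate 1 and overlapped between groups. Plasma cell genes summed to 6926, 5137, 8196 and 3106, with Ighg2b, an immunoglobulin heavy chain, at 35.9 and 42.5 in WT and 692 and 222 in labelled libraries (called by DESeq2, limma adjusted p = 0.174). Markers of macrophages summed to 960.2, 884, 617 and 365, and Mrc1, C1qa and C6 had no read in any of the 4. Axl alone held 678, 655, 263 and 52.3 of these sums. Of the 15 macrophage markers tested, 3 lay above and 3 below both WT libraries, so the sums give no shared direction. Killer lectin receptors moved with the CD8 T and NK markers, with a median of 1.61 in labelled replicate 1 and -1.03 in replicate 2. Those markers include killer lectin receptor genes such as Klrd1 and Klrk1, so the agreement is not a separate observation. T cell markers summed to 27374, 28828, 26301 and 26439, slightly lower in both labelled libraries. Cd28 alone held 7298, 7087, 5366 and 4463 of these sums. Of the 10 T cell markers, 3 lay above and 4 below both WT libraries. In the unstimulated libraries, which served for the spread and for the values before stimulation, some of these sums differed more. B cell markers summed there to 398 and 490 normalized counts in WT and to 5205 and 1191 in labelled replicates 1 and 2. Macrophage markers summed to 1184 and 1202 against 13850 and 2204. Sums of dendritic, erythroid and CD8 T and NK markers overlapped between genotypes. The part of these transcripts in the differences above was not tested. Of the genes called by limma, 24 of 25 higher and 15 of 17 lower ones lay farther from WT in labelled replicate 2 than in replicate 1. The same held for 10520 of all 15419 genes tested, so it was not particular to the called genes.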

How the data were processed

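Poly(A) RNA of 8 libraries of sorted mouse Treg cells was sequenced, 2 per genotype and state. The deposited signal values are counts of reads per gene that the authors scaled by the size factor of each library, given to 2 decimals. Whole reads were recovered for 100% of the values, to within the rounding of the second decimal. The sources differ on how reads were aligned: the methods name Bowtie and build NCBIM37, and the submitters' processing notes name STAR 2.7, bcl2fastq 1.8.4, mm10 and DESeq2. The kit is given both with and without strand marking, so reads of a gene and of an antisense partner may not be separated. No gene coordinates are given except those of RefSeq promoters.

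The main test was limma 3.58.1 (lmFit and eBayes with trend, R 4.3.3, 2-sided) on log2(value + 1) in all 8 libraries with 4 groups, over genes with a mean of at least 10, with Benjamini-Hochberg adjustment at 0.05 and a fold change above 1.5. A fold change on this scale understates the change of low genes. DESeq2 1.42.0 and edgeR 4.0.16 were run on the recovered reads as alternatives. Before use, the scripts were tested on simulated data. Depth was 11851853 to 16306540 reads on genes, and floors cover counting error only.

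Groups came from the labels alone. Named genes were the limma calls, the 3 highest and 3 lowest members of each list whose groups did not overlap and whose mean reached 50, the largest DESeq2 differences, and defining members of a list. The genes B2m, H2-D1, Casp1, Ccnd2, Ifit3b, Isg15, Mx2, Rsad2, Ifnar1, Ifngr1, Ifng, Il4, Il5, Il13, Lef1, Satb1, Ly6c2, Mcm5, Mki67 and Myc were added as such or after their values were seen. Members and lists were chosen with earlier results of these data known. Alternatives were other pseudocounts, filters, scalings, tools, a replicate block and leaving out each library. Some members of the lists are not reported here.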

Additional observations from a re-analysis of the deposited data

How the results depend on the processing

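Against 17 lower and 25 higher genes, limma called 4 and 4 with a pseudocount of 0.1, 35 and 39 with 5, 0 and 1 over every gene with a value above 0, 33 and 49 with a mean of at least 100, and 100 and 102 after quantile normalization. Fitted on the 4 stimulated libraries alone it called 0 and 1, and at an unadjusted p under 0.05 it held 1072 and 864. By edgeR there were 0 and 1, by DESeq2 301 and 243 on 8 libraries and 388 and 303 on 4. With each stimulated library left out in turn, lower calls ranged from 0 to 551 and higher calls from 0 to 211. Scaling to equal totals or upper quartiles kept both counts within 1.5 times. The cause of these shifts was not tested. All 42 genes kept their direction and a difference above 1.5-fold in every alternative that tested them.

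With the replicate block, 43 and 45 genes were called, including all 17 and 25. The replicate numbers are shared by the genotypes but no source ties them to a pool of mice. Deviations of same-numbered stimulated libraries correlated at 0.167 across the 15419 genes, over 2 pairs, so the fit without the block is reported. For the interaction, DESeq2 on 8 libraries called 49 genes and 1247 held at an unadjusted p under 0.05, against 0.

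Among Treg identity genes near 0, Ikzf4 (0.04) was -0.024 after quantile normalization and between -0.21 and 0.30 with a library left out, Il2ra (-0.12) between -0.31 and 0.078, and Tnfrsf18 (-0.14) between -0.35 and 0.073. Class medians of interferon, MHC class I, Ly6, naive, effector Treg, mitosis, replication, histone, nucleotide and ribosome biogenesis genes kept their sign in each scaling and with each library left out. Depth limits the genes at or under 3 reads, whose fold changes are lower bounds.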
